A study of Mus musculus with 2 samples.

Results

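The Hox genes encode homeodomain transcription factors that set the identity of segments along the body axis. Of the 27998 genes in the feature table, 38 were taken as members by their symbols, out of 39 Hox coding genes present. They were followed in single cells of C57BL/6 wild type mouse embryos of 2 ages, E9.5 and E11.5. The somites between the limb buds were dissected, those of 3 embryos of each age were pooled, and the dissociated cells gave 1 droplet library per stage. No treatment or transgene was used, and both stages share the strain and the genotype. With 1 pooled library per stage there is no replicate of any value, so no test between stages was made, and all intervals given here are 95% intervals for counting error only. The axial levels of the somites collected at each age are not stated, so a difference of stage, of axial level and of library cannot be told apart.

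Mouse Hox genes lie in 4 clusters, HoxA to HoxD, on separate chromosomes, and each gene belongs to 1 of 13 paralog groups by its place in the cluster. Genes at the 3′ end of a cluster (low group numbers) are switched on first and reach furthest towards the head, and genes at the 5′ end (high group numbers) are switched on later and nearer the tail. In the trunk, groups 5 to 9 pattern the thorax, with its ribs, group 10 the lumbar region, group 11 the sacrum and group 13 the tail end. Retinoic acid acts on the 3′ genes, Cdx factors, Wnt and Fgf signals and Gdf11 act on the central and 5′ genes, and Pbx and Meis proteins bind DNA together with Hox proteins.

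Cells with at least 200 and fewer than 6500 detected genes and less than 15% mitochondrial UMIs were kept, which left 9851 of 10121 barcodes in the E9.5 library against 9595 of 10167 in the E11.5 library, beside the 10000 cells per stage named in the labels. The kept cells held 139643320 and 129754245 UMIs, with medians of 12462 and 12479 per cell. Hox genes gave 131627 UMIs at E9.5 against 162324 at E11.5, and 94.9% and 95.8% of kept cells held at least 1 of them. The libraries shared 30 barcodes, 25 of them among kept cells. Levels are UMIs of a gene summed over the cells of a gate, per 1000000 UMIs of those cells (UPM), and since each molecule is counted once at its 3′ end, they do not scale with transcript length.

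Cells were placed in 6 tissues by their UMIs of marker genes, called gates here. The somite gate (2453 cells at E9.5 against 1661 at E11.5) rested on Tcf15 and Meox1, the sclerotome gate (1354 and 1183) on Pax1, Pax9 and Nkx3-2, and the muscle gate (171 and 967) on Myf5, Myod1, Myog and Myf6. The neural tube gate (1733 and 105) used Sox1, Sox2, Sox3 and Pax6, the neural crest gate (417 and 157) used Sox10 and Foxd3 among its markers, and the endothelial gate (311 and 83) used Pecam1, Cdh5, Tek, Emcn and Esam. Cells that passed several gates were left out (4.33% at E9.5 against 10.3% at E11.5), and 15.1% and 24.9% passed none. Genes that did not define the gates were found in them as well, with Des at 69.8 and 345 UPM in the muscle gate, Sox9 at 203 and 380 in the sclerotome gate and Kdr at 380.3 and 447 in the endothelial gate. Nkx3-2 itself was near 0 in the sclerotome gate (0.63 and 0.99 UPM).

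The cells inside a gate were not of the same kind at both stages. In the muscle gate Myod1 stood at 2.25 UPM at E9.5 against 438 at E11.5, and Myog at 112 and 1288. In the somite gate Pax3 went from 132 to 24.7 UPM and Foxc2 from 95.5 to 21.2. In the neural tube gate Olig2, a marker of ventral progenitors, went from 37.1 UPM to 0 and the progenitor gene Fabp7 from 58.4 to 3403. The part of such changes in makeup in the stage ratios was not tested, except where subsets are given. Red blood cells, which should lack most Hox RNA, had summed Hox levels of 34.2 and 46.3 UPM, where the 6 gates had 381 to 2597. Per 1000000 UMIs that were not of globin genes, the red blood cell levels were 51.8 and 117.

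In the GRCm38 annotation (GENCODE M21) the 10 HoxA members lie at chr6:52162417-52260880 on the minus strand, the 10 HoxB members at chr11:96194316-96368256, the 9 HoxC members at chr15:102921103-103036852 and the 9 HoxD members at chr2:74668310-74765142, the last 3 on the plus strand. Gene models in these clusters overlap. Hoxd3 shares 62.3% of its exon bases with Hoxd4 and Gm28230 on the same strand, and Hoxd4 shares 52.3% with Hoxd3 and Gm28230. The bases shared with each gene were not counted apart. The counts were made on the authors' Cell Ranger reference, whose gene models were not compared with this annotation. How far such overlap affects the UMI counts of Hoxd3 and Hoxd4 is not known, so these counts are uncertain.

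RefSeq promoters (GRCm38.p6) were matched for 22 members, and the 250 bases before the start of 4 are printed, chosen for their opposite movements below: Hoxb1 was lower at E11.5 in 5 of the 6 gates, Hoxa7 and Hoxb8 were low in E11.5 cells of the somite and sclerotome gates with group 10 RNA, and Hoxd9 was high in them. Capitals mark matches, on either strand, to TTTATG, the core of Cdx sites, or to TGATNNAT, the form of joint Pbx and Hox sites. The first motif was found in 10.8% of the 32817 promoters in the table and in 5 of the 22 members (Hoxa7, Hoxb8, Hoxd3, Hoxd4 and Hoxd11), the second in 7.69% and in 4 members (Hoxa2, Hoxb1, Hoxb8 and Hoxd11). A match describes the letters and is not evidence of binding.
Hoxb1, chr11:96365508-96365757, plus strand: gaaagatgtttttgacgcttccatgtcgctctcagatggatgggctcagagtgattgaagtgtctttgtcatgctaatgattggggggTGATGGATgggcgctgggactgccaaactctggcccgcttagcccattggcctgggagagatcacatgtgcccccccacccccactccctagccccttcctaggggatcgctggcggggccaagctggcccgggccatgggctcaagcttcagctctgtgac
Hoxa7, chr6:52218574-52218823, minus strand: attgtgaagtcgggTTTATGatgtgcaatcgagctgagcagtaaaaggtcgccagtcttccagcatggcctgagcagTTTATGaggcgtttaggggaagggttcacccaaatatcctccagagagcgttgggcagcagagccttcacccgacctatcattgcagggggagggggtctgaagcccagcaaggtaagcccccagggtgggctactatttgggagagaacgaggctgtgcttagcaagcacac
Hoxb8, chr11:96281655-96281904, plus strand: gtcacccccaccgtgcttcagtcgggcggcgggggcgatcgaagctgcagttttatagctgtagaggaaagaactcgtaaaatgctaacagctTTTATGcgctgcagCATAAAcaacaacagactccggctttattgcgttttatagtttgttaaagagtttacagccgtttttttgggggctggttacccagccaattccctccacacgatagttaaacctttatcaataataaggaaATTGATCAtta
Hoxd9, chr2:74697513-74697762, plus strand: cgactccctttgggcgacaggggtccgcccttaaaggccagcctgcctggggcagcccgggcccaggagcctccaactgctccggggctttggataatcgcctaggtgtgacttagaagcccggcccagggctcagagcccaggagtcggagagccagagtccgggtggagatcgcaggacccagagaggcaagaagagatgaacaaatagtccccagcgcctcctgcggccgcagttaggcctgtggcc

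Between E9.5 and E11.5 the largest share of Hox RNA in the paraxial mesoderm passed from the HoxB cluster to the HoxC cluster. In the somite gate HoxB genes gave 49.3% of Hox UMIs at E9.5 against 11.6% at E11.5, while HoxC genes gave 17.0% and 50.8%. The muscle gate moved further, from 51.5% to 8.8% for HoxB and from 14.5% to 59.8% for HoxC. In the sclerotome gate HoxB went from 55.0% to 21.4% and HoxC from 12.2% to 44.0%. As levels, HoxB went from 456 to 169.6 UPM in the somite gate (-1.42) but stayed within 2-fold in the sclerotome gate (368 and 323, -0.19), where HoxC went from 81.9 to 665 (3.02). The neural gates kept HoxB as their main cluster, with 51.9% and then 42.4% in the neural tube gate and 64.4% and then 52.2% in the neural crest gate. Endothelial cells held few HoxC UMIs at E9.5 (4.0%) and more at E11.5 (22.8%).

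**Figure D1:**
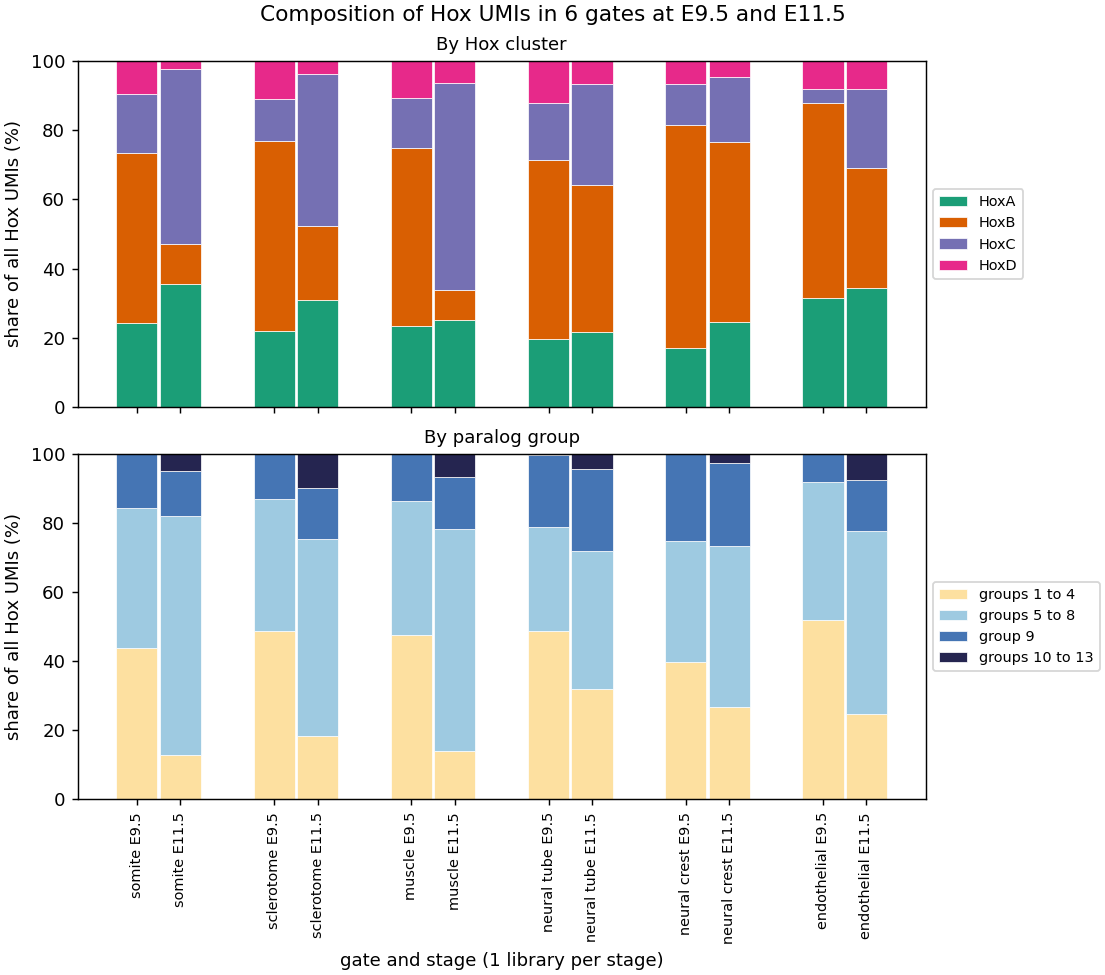
Share of all Hox UMIs (percent) given by each Hox cluster (upper panel) and by blocks of paralog groups (lower panel), for 6 gates at 2 stages, 1 library per stage. HoxC takes the largest share in the somite, sclerotome and muscle gates at E11.5, and groups 10 to 13 appear as a visible block only at E11.5.

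Along the paralog groups the shift ran from 3′ to 5′ in all 6 gates, though not in every group. Groups 1 to 4 gave 43.7% of Hox UMIs in the somite gate at E9.5 against 12.7% at E11.5, and 48.6% and 31.8% in the neural tube gate. The share of groups 5 to 8 was higher at E11.5 in each of the 6 gates, going from 40.4% to 69.3% in the somite gate and from 30.2% to 40.1% in the neural tube gate. Group 9 took a lower share at E11.5 in the somite gate, with 4910 of 31141 Hox UMIs at E9.5 against 4413 of 34355. It did so in the neural crest gate too, with 1948 of 7705 against 704 of 2942. The level of group 9 in the muscle gate was 98.8 UPM at E9.5 against 98.6 at E11.5, its make-up having passed from Hoxb9 to Hoxc9. These are shares of a sum, so a rise of 1 block lowers the others.

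The summed level went up in some tissues and not in others. It was 925 UPM (914 to 935) in the somite gate at E9.5 against 1465 (1449.7 to 1481) at E11.5, a log2 ratio of 0.66. In the sclerotome gate it was 669 and then 1511 UPM (log2 ratio 1.17), and in the neural tube gate 1139.6 and then 2597 (1.19). The muscle gate (721 and 656 UPM, log2 ratio -0.14) and the neural crest gate (1075 and 1003, log2 ratio -0.10) changed little in sum although their members moved in both directions. The endothelial gate was lowest at both stages, at 381 and 524 UPM. The direction of the muscle sum turned with cells thinned to 5000 UMIs and gated again (0.18). That of the endothelial sum turned with Leiden clusters in place of gates (-0.23).

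At E9.5 the 3 highest members were the same in the somite, sclerotome and muscle gates, namely Hoxb9, Hoxb2 and Hoxb4. Hoxb9, a thoracic gene, stood at 104 UPM in the somite gate, 76.9 in the sclerotome gate and 82.2 in the muscle gate. Hoxb2, a gene of the hindbrain and upper trunk, stood at 88.8, 68.2 and 65.6 UPM, and Hoxb4, a gene of the neck and upper thorax, at 72.6, 66.9 and 65.3. The intervals of Hoxb2 and Hoxb4 overlap in the sclerotome and muscle gates. Hoxb4 is not separated from the next members in the somite gate, where Hoxa5 (69.9) and Hoxa7 (69.6) overlap it, nor in the muscle gate, where Hoxa7 (54.3) does. The neural tissues shared Hoxb9 as the highest member, at 183 UPM in the neural tube gate and 234 in the neural crest gate, followed by Hoxd4 (113) and Hoxb2 (101.0) in the neural tube gate and by Hoxb2 (120.4) and Hoxb8 (89.3) in the neural crest gate. Endothelial cells instead led with Hoxb4 (50.8), Hoxa5 (50.0) and Hoxb2 (48.0), whose intervals overlap.

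At E11.5 the leading members of the same 3 mesodermal gates were Hoxc8, Hoxa7 and Hoxc6, in this order in each. Hoxc8, a gene of the lower neck and thorax, stood at 317 UPM in the somite gate, 224 in the sclerotome gate and 154 in the muscle gate. Hoxa7 stood at 284, 217 and 94.5 UPM and Hoxc6 at 202, 152 and 86.2. The intervals of Hoxc8 and Hoxa7 overlap in the sclerotome gate, and those of Hoxa7 and Hoxc6 in the muscle gate. Hoxb9 remained the highest member in the neural tube gate (292 UPM, before Hoxc6 at 233 and Hoxb2 at 184) and in the neural crest gate (133 UPM, before Hoxa7 at 103 and Hoxb2 at 81.5). The endothelial gate had Hoxa7 (58.1), Hoxb7 (47.7) and Hoxc8 (45.5), with intervals that overlap.

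**Figure D2:**
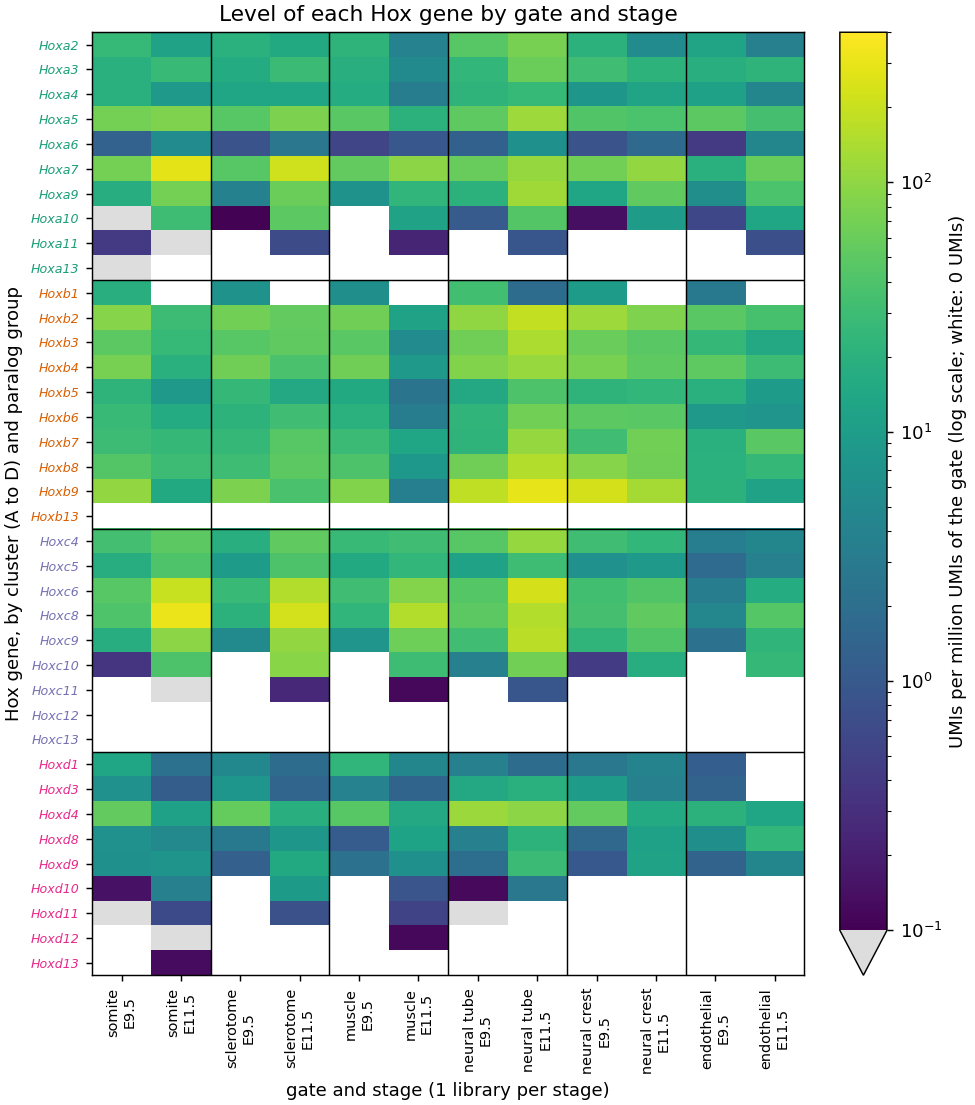
Level of each of the 38 Hox genes in UPM (colour, log scale, white for 0 UMIs and grey for under 0.1), by gate and stage, 1 library per stage. HoxC members from Hoxc5 to Hoxc10 brighten at E11.5 in the somite, sclerotome and muscle columns while HoxB members darken in the muscle columns and stay bright in the neural tube columns, and rows of groups 11 to 13 are white or dark throughout.

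For stage ratios, a member with at least 20 UMIs in a gate over both stages was called when its levels differed by more than 2-fold, and the same rule was applied to all genes. In the somite gate 20 of 29 such members were past 2-fold, where 23.0% of the 13494 genes measured were. The 10 higher members (16.7% of all genes were higher) were Hoxa6, Hoxa7, Hoxa9, Hoxa10, Hoxc5, Hoxc6, Hoxc8, Hoxc9, Hoxc10 and Hoxd10. The 10 lower members (6.24% of all genes) were Hoxa2, Hoxa4, Hoxb1, Hoxb2, Hoxb4, Hoxb5, Hoxb9, Hoxd1, Hoxd3 and Hoxd4. Apart from Hoxb5 and Hoxb9 the lower ones were all of groups 1 to 4. The median log2 ratio was 0.16 over all genes and -0.20 over the 29 members.

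Hoxc8 went from 41.2 to 317 UPM in the somite gate, a log2 ratio of 2.95 (2.86 to 3.03), and Hoxa7 from 69.6 to 284 (2.03). Hoxc9, which acts in the thorax, went from 17.8 to 94.8 UPM (2.41) and Hoxa9 from 17.5 to 70.3 (2.00). Paralogs parted from each other: Hoxb9 went the other way, from 104 to 15.7 UPM (-2.73, -2.89 to -2.58), and Hoxd9 was at 6.35 and 7.38 (0.22). Hoxb1, an early gene of the hindbrain and of newly laid mesoderm, had 626 UMIs at E9.5 against none among 1661 cells at E11.5. That is 145-fold lower with 0 set to a floor of 3 counts, which is not a lower limit. The 95% limit of its log2 ratio was -6.88, a smaller fold.

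The sclerotome, which forms vertebrae and ribs, had 18 of 29 members past 2-fold (23.2% of all genes). The 13 higher members (18.4%) were the 6 of the HoxC cluster from Hoxc4 to Hoxc10 with Hoxa6, Hoxa7, Hoxa9, Hoxa10, Hoxd8, Hoxd9 and Hoxd10, and the 5 lower ones (4.77%) were Hoxb1, Hoxb9, Hoxd1, Hoxd3 and Hoxd4. Hoxc8 went from 20.8 to 224 UPM (3.43), Hoxc9 from 5.07 to 105 (4.37) and Hoxa9 from 3.87 to 62.4 (4.01). Each of these ratios lay above the interval of the same gene in the somite gate. HoxB genes other than Hoxb1 and Hoxb9 stayed within 2-fold, among them Hoxb2 at 68.2 and 54.6 UPM. The median log2 ratio was 0.81 over members and 0.21 over all genes.

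The muscle gate showed the most members past 2-fold, 24 of 27, against 22.8% of all genes. Lower at E11.5 were 16 members (6.01% of all genes): Hoxa2, Hoxa3, Hoxa4 and Hoxa5, all 9 measured HoxB genes, and Hoxd1, Hoxd3 and Hoxd4. Higher were 8 (16.8%): Hoxa9, Hoxa10, Hoxc6, Hoxc8, Hoxc9, Hoxc10, Hoxd8 and Hoxd9. Hoxb9 went from 82.2 to 3.54 UPM, a log2 ratio of -4.54 (-4.97 to -4.13), Hoxb3 from 47.8 to 5.45 (-3.13) and Hoxb4 from 65.3 to 8.87 (-2.88). Hoxa5 turned to higher with cells thinned to 5000 UMIs and gated again (1.35), where the E9.5 gate held 49 cells in place of 171. The whole HoxB cluster went from 371 to 57.6 UPM. Hoxc8 went from 23.6 to 154 UPM (2.70), Hoxc9 from 7.60 to 64.7 (3.09) and Hoxd8 from 1.13 to 12.3 (3.45), so the muscle gate lost HoxB RNA while it gained HoxC RNA. The median member had a log2 ratio of -1.45, against 0.04 over all genes.

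In the neural tube gate the direction was mostly up, with 18 of 28 members higher (18.0% of all genes were) and 1 lower (5.83%), together 19 (23.9% of all genes). The higher members were Hoxa3, Hoxa5, Hoxa6, Hoxa9, Hoxa10, Hoxb3, Hoxb5, Hoxb6, Hoxb7, Hoxb8, the 6 measured HoxC genes, Hoxd8 and Hoxd9, and the lower one was Hoxb1. Hoxb7 went from 21.8 to 106 UPM (2.29), Hoxc6, which marks limb-level motor neurons, from 44.6 to 233 (2.39) and Hoxc9 from 31.3 to 171 (2.45). Hoxb1 had 790 UMIs at E9.5 against 2 at E11.5, 32.6 and 1.85 UPM (log2 ratio -4.14, -7.19 to -2.28). The 105 cells at E11.5 make these values less exact than those of the mesoderm. On removing the shift of 0.21 in the median of all genes, Hoxb3 and Hoxc4 came within 2-fold and Hoxd1 passed it.

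The neural crest gate changed least, with 10 of 27 members past 2-fold (21.2% of all genes). Hoxa9, Hoxa10, Hoxb7, Hoxc10, Hoxd8 and Hoxd9 were higher (6, with 14.9% of all genes) and Hoxa2, Hoxb1, Hoxd3 and Hoxd4 lower (4, with 6.34%). Hoxa2, which patterns crest of the second pharyngeal arch, went from 20.8 to 5.45 UPM (-1.93), and Hoxa9 from 13.5 to 52.8 (1.96). The genes that led the mesodermal shift moved little here. Hoxc8 was at 34.5 and 52.5 UPM (0.61, 0.31 to 0.90) and Hoxb9 at 234 and 133 (-0.82).

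Endothelial cells had 12 of 22 members past 2-fold (13.2% of all genes), 9 higher (9.18%) and 3 lower (3.97%). Hoxa7, Hoxa9, Hoxa10, Hoxb7, Hoxc6, Hoxc8, Hoxc9, Hoxc10 and Hoxd8 were higher, and Hoxa2, Hoxa4 and Hoxb5 lower. Hoxc8 went from 4.64 to 45.5 UPM (3.29, 2.58 to 4.05) and Hoxa9, known for its role in endothelial cells, from 6.05 to 38 (2.65). The counts are small, as the 83 cells at E11.5 held 61 UMIs of Hoxc8, and Hoxb5 stood at 97 and 13 UMIs with an interval of -1.97 to -0.17 around its log2 ratio of -1.01.

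Across gates, Hoxa9, Hoxa10 and Hoxc10 were past 2-fold higher in all 6, and Hoxb1 was lower in each of the 5 gates where it had enough UMIs. Hoxc6, Hoxc8, Hoxc9 and Hoxd8 were higher in 5 of 6. Hoxc6, Hoxc8 and Hoxc9 missed the threshold in the neural crest gate, and Hoxd8 did in the somite gate, at 6.74 and 4.90 UPM. Hoxd1, the other group 1 member, did not follow Hoxb1 everywhere. It was lower in the somite gate (13.7 and 2.26 UPM, -2.60), the sclerotome gate (4.81 and 1.85, -1.38) and the muscle gate (23.6 and 4.55, -2.38). It stayed within 2-fold in the neural tube gate (3.68 and 1.85 UPM, on 2 UMIs at E11.5) and in the neural crest gate (2.79 and 4.09), and the endothelial gate had too few UMIs (6 and 0) to measure it.

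**Figure D3:**
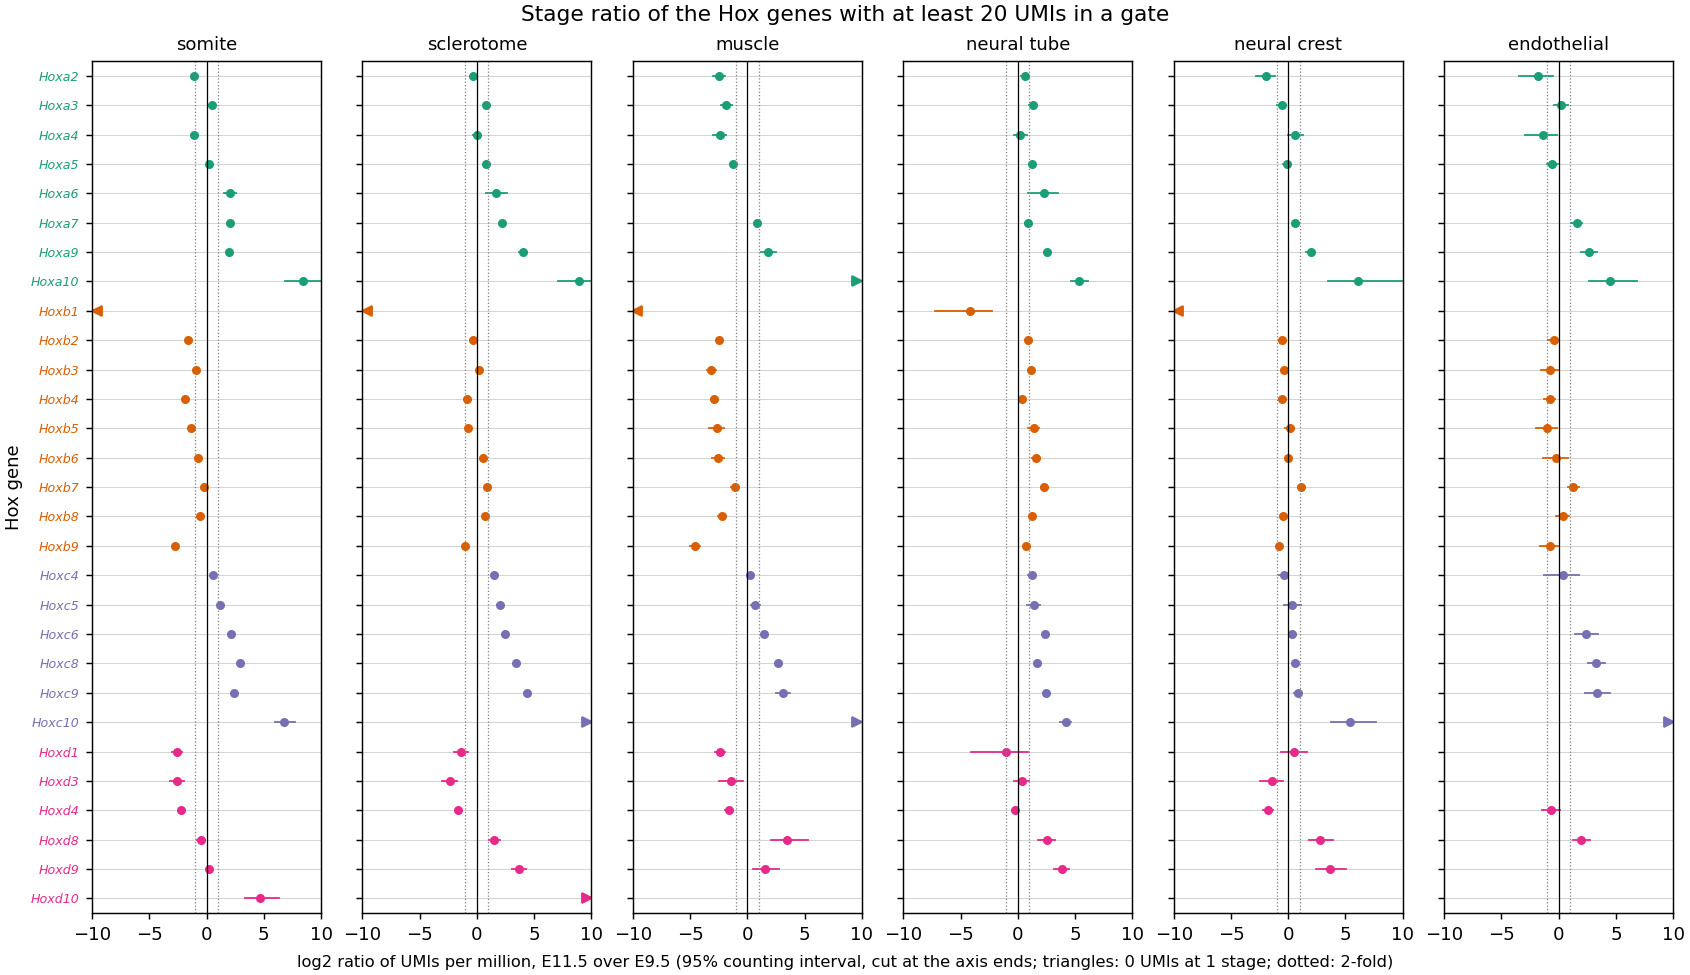
Log2 ratio of UPM, E11.5 over E9.5, for each Hox gene with at least 20 UMIs in a gate (points, with 95% counting intervals that are cut at the axis ends, coloured by cluster as in the gene labels), 1 library per stage. Triangles mark genes with 0 UMIs at 1 stage and dotted lines 2-fold, and HoxB genes lie left of 0 in the muscle panel and mostly right of 0 in the neural tube panel.

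Group 10 genes, which suppress ribs in the lumbar region, were close to absent from the E9.5 gates and plain to see at E11.5. In the somite gate Hoxa10 had 3 UMIs at E9.5 against 713 at E11.5 (0.089 and 30.4 UPM), Hoxc10 12 and 926 (0.36 and 39.5) and Hoxd10 5 and 87 (0.15 and 3.71). The sclerotome gate held 2 and 759 UMIs of Hoxa10, 0 and 1373 of Hoxc10 and 0 and 138 of Hoxd10. Against the floor of 3 counts Hoxc10 was 578-fold higher and Hoxd10 58.1-fold. In the muscle gate none of the 3 had a UMI at E9.5, and at E11.5 Hoxa10 had 198, Hoxc10 515 and Hoxd10 15. Against the same floor Hoxa10 was 14.1-fold higher and Hoxc10 36.6-fold. Summed over the group, the level at E11.5 was 73.6 UPM in the somite gate, 149.8 in the sclerotome gate and 43.6 in the muscle gate.

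In the neural tube gate Hoxa10 had 26 and 47 UMIs (1.07 and 43.5 UPM), Hoxc10 90 and 73 (3.72 and 67.6) and Hoxd10 3 at each stage. In the neural crest gate Hoxa10 had 1 and 28 UMIs, Hoxc10 3 and 51, and Hoxd10 none. The endothelial gate held 3 and 18 UMIs of Hoxa10, 0 and 34 of Hoxc10 and none of Hoxd10. Against the floor of 3 counts Hoxc10 was 41.9-fold higher, and its 34 UMIs came from 7 of 83 cells. In these 3 tissues group 10 RNA was seen at E11.5 on fewer UMIs than in the mesoderm, and in fewer cells. Their gates also held fewer cells (105, 157 and 83) than the somite, sclerotome and muscle gates (1661, 1183 and 967). The counts therefore do not compare how common the RNA was. As a summed level group 10 stood at 113.8 UPM in the neural tube gate, above the somite and muscle gates. It was at 26.9 in the neural crest gate and 38.8 in the endothelial gate.

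This RNA was detected in a minority of cells, and a cell without a UMI is not shown to lack it. With each cell thinned to 5000 UMIs, the share with a group 10 UMI at E11.5 was 12.4% (202 of 1628 cells, Clopper-Pearson 10.8 to 14.1%) in the somite gate, 25.9% (299 of 1155) in the sclerotome gate and 10.5% (96 of 911) in the muscle gate. It was 32.3% (30 of 93) in the neural tube gate, 9.80% (15 of 153) in the neural crest gate and 14.3% (10 of 70) in the endothelial gate. Red blood cells of the same library gave 1.71% (2 of 117, 0.21 to 6.04%), and their median depth of 16796.5 UMIs was above that of 5 of the 6 gates (9648 to 18400.0). Globin made up most of the UMIs of these red blood cells, so at the same thinned depth they held fewer UMIs of other genes than the cells of the 6 gates, and their share may understate the background. Thinning left out 4 to 56 cells per gate. Without thinning the shares were 16.6%, 32.7%, 17.4%, 42.9%, 17.8% and 18.1% in the order above, and 3.28% in red blood cells. At E9.5 the thinned shares were at most 1.36% (23 of 1697 neural tube gate cells). The 0 of 103 red blood cells leave an upper limit of 3.52%, too wide to tell these shares from background, and the same caution about globin UMIs holds. Between gates of that library, Hoxc10 stood at 3.72 UPM in the neural tube gate against 0.36 in the somite gate (3.38, 2.51 to 4.39).

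Groups 11 to 13 were at the edge of detection in all 6 gates. Hoxa11 had 14 UMIs in 8 somite gate cells at E9.5 against 1 at E11.5, and at E11.5 also 10 in the sclerotome gate, 4 in the muscle gate and 1 each in the neural tube and endothelial gates. Hoxd11 had 2 and 15 UMIs in the somite gate, 0 and 12 in the sclerotome gate, 0 and 9 in the muscle gate and 1 and 0 in the neural tube gate. Hoxc11 was found at E11.5 with 1, 4, 2 and 1 UMIs in the somite, sclerotome, muscle and neural tube gates. Hoxd12 had 2 UMIs each in the somite and muscle gates at E11.5, Hoxd13 had 3 in the somite gate at that stage, and Hoxa13 had 1 in the somite gate at E9.5. Hoxb13, Hoxc12 and Hoxc13 gave no UMI in any of the 6 gates at either stage. The floor of 3 counts is 0.089 UPM in the E9.5 somite gate and 2.78 in the E11.5 neural tube gate, the largest and the smallest by UMIs.

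Lateral plate cells, sorted out by Foxf1, Hand2, Tbx5, Tbx4 and Pitx1 and left out of the 6 gates, held more RNA of several genes of groups 8 to 10 than the somite gate at E9.5. At E9.5 (627 cells) 7 of 30 members were past 2-fold higher than in the somite gate, where 4.22% of all genes were, and none of the 30 lower (5.25% of all genes). The 7 were Hoxa9, Hoxa10, Hoxc9, Hoxc10, Hoxd8, Hoxd9 and Hoxd10. Hoxa10 stood at 8.14 UPM against 0.089, Hoxc10 at 16.2 against 0.36 and Hoxd9 at 39.1 against 6.35. Groups 5′ of these were also found, since Hoxd11 stood at 10.7 UPM and Hoxd12 at 2.12 in lateral plate cells at E11.5. Of the 7, Hoxa10 (2.20), Hoxc10 (1.64), Hoxd9 (1.01) and Hoxd10 (1.04) were still past 2-fold above the somite gate at E11.5. Hoxa9 (0.95), Hoxc9 (-0.005) and Hoxd8 (0.54) were not, and group 8 as a sum was lower in lateral plate cells, at 130 against 351 UPM (-1.43). In the 6 gates at E11.5 the hindlimb genes Pitx1 and Tbx4 were at no more than 3.63 and 0.26 UPM. Both are lateral plate markers, and cells with 2 or more UMIs of such markers were kept out of the 6 gates. These low levels therefore follow in part from the gating and cannot tell whether limb cells are present.

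Within the E11.5 library, cells with and without a group 10 UMI were compared for the other members, each cell thinned to 5000 UMIs. In the somite gate 4 of 23 members were past 2-fold higher in cells with group 10 RNA (2.17% of all genes) and 8 lower (3.58%). The 4 were Hoxa9, Hoxb9, Hoxd8 and Hoxd9. Hoxd9 stood at 45.5 UPM in the 202 cells with and 1.68 in the 1426 without, a log2 ratio of 4.76 (3.82 to 5.81), and Hoxa9 at 194 against 58.6 (1.73). The genes of groups 5 to 8 that led the whole gate were low in these cells. Hoxa7 stood at 69.3 against 317 UPM (-2.19, -2.56 to -1.85), Hoxc8 at 93.1 against 343 (-1.88) and Hoxc6 at 85.1 against 214 (-1.33), and Hoxb8, whose promoter is printed above, at 8.91 against 33.2 (-1.90).

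The sclerotome and muscle gates showed the same arrangement. In the sclerotome gate (299 cells with, 856 without) 3 of 22 members were higher (1.01% of all genes), Hoxa9, Hoxb9 and Hoxd9, and 9 lower (2.39%). Hoxd9 stood at 54.8 against 2.34 UPM (4.55) and Hoxa9 at 136 against 33.6 (2.01), while Hoxa7 stood at 58.9 against 245 (-2.06) and Hoxc6 at 49.5 against 184 (-1.89). In the muscle gate (96 with, 815 without) 5 of 18 were higher (2.58%) and 7 lower (7.49%), with Hoxd9 at 41.7 against 2.21 UPM (4.24), Hoxa9 at 95.8 against 14.0 (2.78) and Hoxa7 at 29.2 against 95 (-1.70). Group 9 thus went with group 10 in all 3 mesodermal gates. As a sum, groups 5 to 8 went against it, at 383, 336 and 212 UPM with and 1106, 989 and 443 without. Hoxd8, of group 8, was an exception in the somite gate, being past 2-fold higher with group 10 RNA. Hoxc9 went with group 10 as well but less steeply, at log2 ratios of 0.76, 0.80 and 1.07.

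In the neural tube gate the split was not seen at this depth. With 30 cells against 63, 1 of 17 members was past 2-fold higher (Hoxa9 at 180.0 against 76.2 UPM, 1.24, 0.39 to 2.10; 3.06% of all genes) and none of the 17 lower (4.48% of all genes). Hoxa7 stood at 147 against 117 UPM (0.32, -0.51 to 1.12) and Hoxc8 at 180.0 against 206 (-0.20, -0.90 to 0.47). Both intervals leave out the ratios found in the somite and sclerotome gates.

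The lateral plate markers were low in both sets of cells, which follows in part from the gating, since cells with 2 or more of their UMIs were kept out. At E11.5 429 cells that passed both the lateral plate and the sclerotome gates had been left out. The summed level of the markers was 8.91 UPM with and 5.75 without in the somite gate, 17.4 and 19.4 in the sclerotome gate and 10.4 and 3.68 in the muscle gate. The hindlimb gene Pitx1 was higher with group 10 RNA in each, on 3 to 9 UMIs, at 6.93 and 1.54 UPM in the somite gate, 6.02 and 3.50 in the sclerotome gate and 6.25 and 2.45 in the muscle gate, with overlapping intervals in the sclerotome and muscle gates. When every cell with a UMI of such a marker was left out, Hoxa7 and Hoxd9 had log2 ratios of -2.31 and 5.07 in the somite gate, -2.14 and 4.60 in the sclerotome gate and -1.60 and 4.08 in the muscle gate. Muscle cells with group 10 RNA also held less of the markers of their own gate (1054 against 2080.5 UPM), and the part of this in their Hox ratios was not tested.

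**Figure D4:**
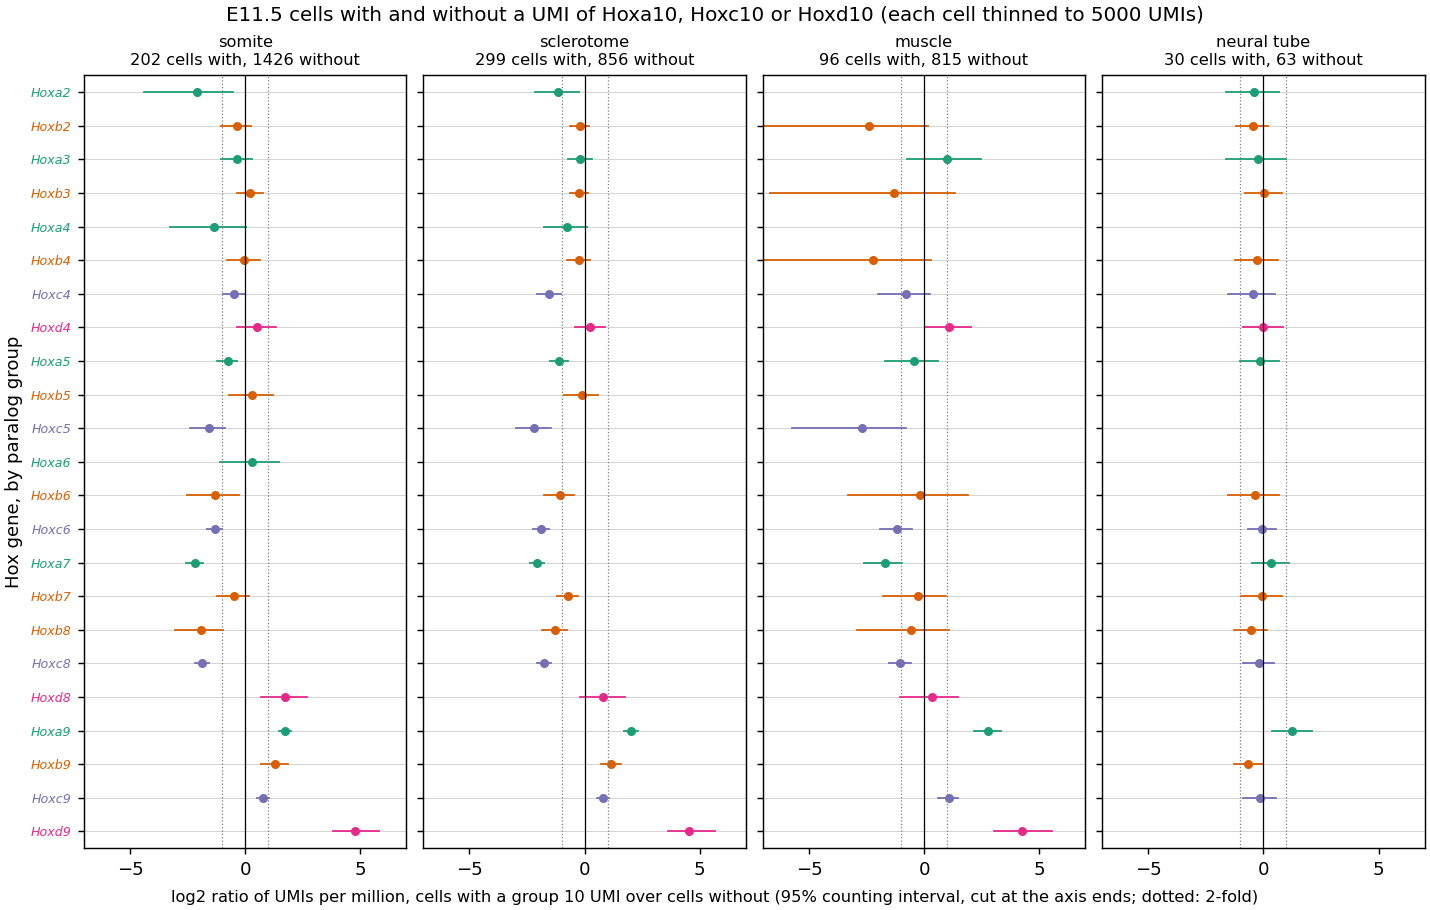
Log2 ratio of UPM between E11.5 cells with and without a UMI of Hoxa10, Hoxc10 or Hoxd10, for the other Hox genes with at least 20 UMIs, ordered by paralog group (points, with 95% counting intervals cut at the axis ends). In the somite, sclerotome and muscle panels Hoxa9 and Hoxd9 lie to the right and Hoxa7, Hoxc5, Hoxc6 and Hoxc8 to the left, and in the neural tube panel most points lie near 0.

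New somites form at the tail end of the row, so recently formed cells can be set against older ones inside the E9.5 library. The 116 somite gate cells with a UMI of Ripply2, Mesp2, Cer1 or Tbx6, genes of somite formation, were compared with the other 2337 (median 13470.5 and 12433 UMIs). In these cells 11 of 26 members were past 2-fold higher (5.53% of all genes) and none of the 26 lower (6.22% of all genes). They were Hoxb1 and Hoxd1 of group 1, Hoxd3, Hoxa6, Hoxa7, Hoxb7, Hoxc8, Hoxd8 and 3 of the group 9 genes. Hoxd9 stood at 36.7 against 4.70 UPM (2.97, 2.52 to 3.40), Hoxa9 at 90.0 against 13.6 (2.73) and Hoxc9 at 84.3 against 14.2 (2.57).

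The higher members ranged from group 1 to group 9, with Hoxd3 and members of groups 6 to 8 among them. Hoxd1 stood at 61.9 against 11.1 UPM (2.49) and Hoxb1 at 56.8 against 16.5 (1.78), whereas the HoxB members of groups 2 to 4 were level, with Hoxb2 at 79.7 against 89.3 (-0.16), Hoxb3 at 50.4 against 49.7 (0.02) and Hoxb4 at 68.2 against 72.9 (-0.09). Hoxb9, the highest member of the gate, was at 142 against 102 UPM (0.48), well below the ratios of its 3 paralogs. Of the 20 group 10 UMIs in the E9.5 somite gate, 10 came from these 116 cells.

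The dermomyotome, the source of muscle and dermis, was marked by at least 2 UMIs of Dmrt2. At E9.5 none of 26 members was past 2-fold higher (1.21% of all genes) or lower (6.23%) in the 361 marked cells than in the other 2092. At E11.5 the 215 marked cells had less HoxB RNA than the other 1446, 72.7 against 186 UPM (-1.35, -1.55 to -1.16), with HoxC level at 744 against 745. Lower by more than 2-fold were 7 of 28 members (5.12% of all genes), Hoxb4, Hoxb5, Hoxb6, Hoxb7, Hoxb8, Hoxb9 and Hoxd1, and higher was 1 (2.31%), Hoxa10 at 61.7 against 25.2 UPM (1.29). Hoxb8 stood at 6.59 against 32.9 UPM (-2.32) and Hoxb6 at 3.89 against 18.4 (-2.24).

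Differentiating muscle cells held less Hox RNA than the others of their gate. At E11.5 the sum was 504 UPM in the 544 cells with at least 2 Myog UMIs and 887 in the 322 with none (-0.82, -0.87 to -0.76). Of 26 members 9 were past 2-fold lower (6.97% of all genes), among them Hoxc10 at 19.2 against 50.7 UPM (-1.40), Hoxc9 at 38.6 against 98.0 (-1.35) and Hoxa5 at 13.6 against 31.1 (-1.19). The 2 higher members were a smaller share than the 8.77% of all genes. They were Hoxd8 at 17.1 against 6.34 UPM (1.43, 0.89 to 2.01) and Hoxd1 at 6.86 against 1.30 (2.40, 1.27 to 3.76). At E9.5, where only 26 cells were Myog positive by this rule and 140 had none, 9 of 22 were lower (6.83%) and 2 higher (4.98%), and Hoxd1 stood at 13 against 25.6 UPM.

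The stage shift in muscle was seen within both of these steps. As point values it was smaller for HoxB than across the gate (-2.69, -2.81 to -2.57) and larger for HoxC (1.91, 1.75 to 2.06). HoxB went from 237 to 48.6 UPM in Myog cells (-2.29, -2.57 to -1.99) and from 398 to 73.8 in cells without Myog (-2.43, -2.60 to -2.27). HoxC went from 57.8 to 279 (2.27, 1.76 to 2.83) and from 116 to 562 (2.28, 2.12 to 2.45). Only the HoxC interval in cells without Myog lay apart from that of the whole gate. The summed level was near level within each step, with log2 ratios of 0.06 and 0.21.

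**Figure D5:**
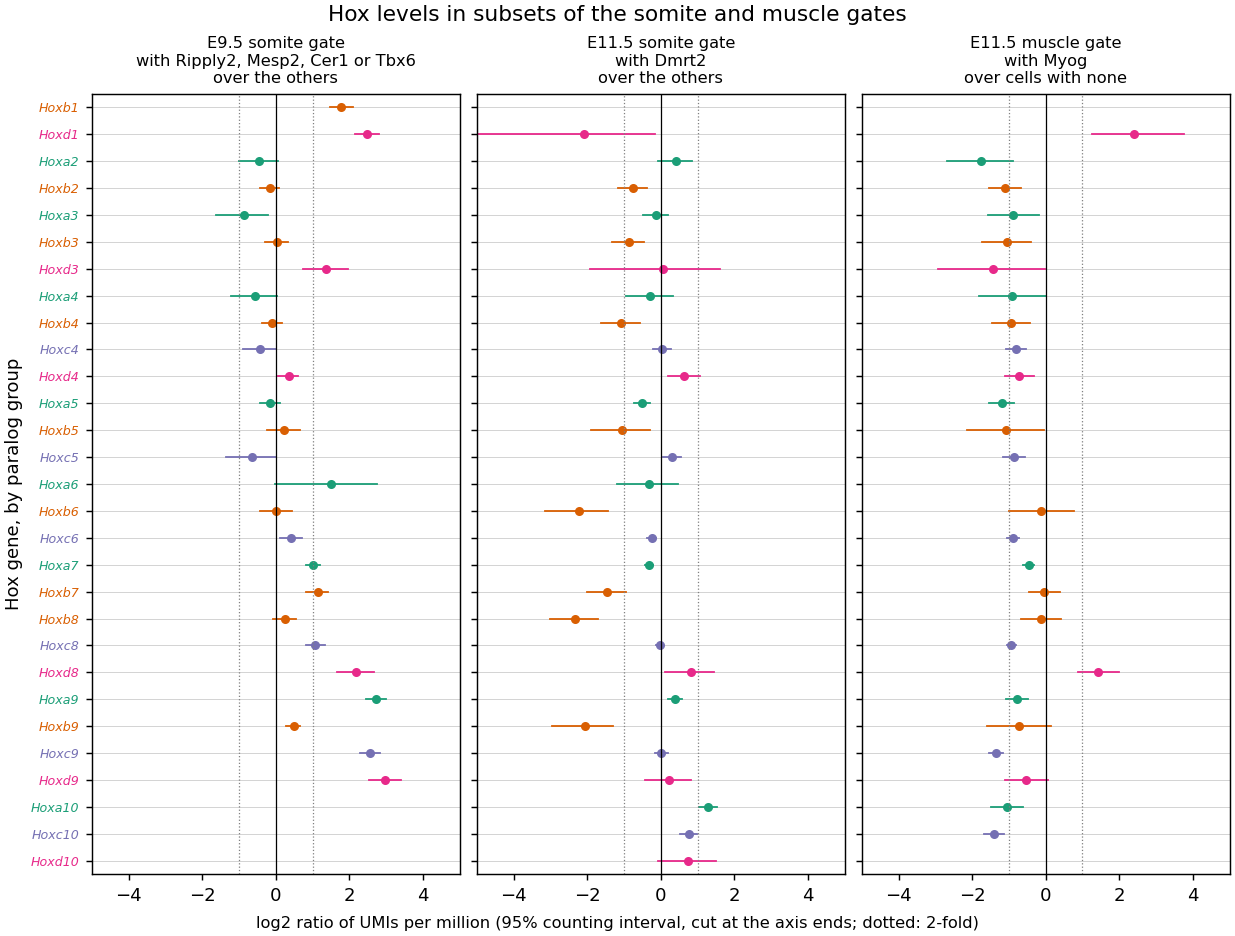
Log2 ratio of UPM for each Hox gene with at least 20 UMIs (points, with 95% counting intervals cut at the axis ends), in E9.5 somite gate cells with markers of somite formation over the others (left), E11.5 somite gate cells with Dmrt2 over the others (middle) and E11.5 muscle gate cells with Myog over those with none (right). Group 1 and group 9 genes other than Hoxb9 lie far to the right in the left panel, Hoxb6, Hoxb8 and Hoxb9 to the left in the middle panel, and Hoxd1 and Hoxd8 alone past 2-fold to the right in the right panel.

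Tissues of the same library also differed. At E11.5 the muscle gate was past 2-fold below the somite gate for 18 of 29 members (10.5% of all genes). It was above it for 2, a smaller share than the 8.74% of all genes, namely Hoxd1 (4.55 against 2.26 UPM) and Hoxd8 (12.3 against 4.90). At E9.5 6 of 26 were below (5.48%), all of groups 1, 6, 8 and 9, and none of the 26 above (3.23%). The sclerotome gate at E9.5 was below the somite gate for Hoxa9, Hoxb1, Hoxc9, Hoxd1, Hoxd8 and Hoxd9 (6 of 26, 4.32% of all genes), the genes that were also high in newly formed cells, and above it for none of the 26 (1.28%). Since those newly formed cells are part of the somite gate, these values are not independent of each other. At E11.5 sclerotome was instead above the somite gate for Hoxb3, Hoxb9, Hoxc10, Hoxd9 and Hoxd10 (5 of 29, 2.75%) and below it for Hoxa6 (3.24%).

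The neural tube gate at E11.5 was past 2-fold above the somite gate for 16 of 28 members (12.6% of all genes), with Hoxb9 at 292 against 15.7 UPM (4.22) and Hoxd3 at 19.4 against 1.15 (4.08), and below it for Hoxa7 and Hoxc8 (10.4%). Crest cells, which leave the neural tube, were past 2-fold below the neural tube gate for 20 of 25 members at E11.5 (8.86% of all genes), above it for none of the 25 (9.47%), and below it for 8 of 28 at E9.5 (9.74%). Hoxa2 stood at 5.45 against 72.2 UPM (-3.73) and Hoxd4 at 16 against 95.3 (-2.57). At E9.5 only Hoxb6 was past 2-fold higher in crest, at 49.1 against 22.9 UPM (1.10; 5.00% of all genes). The endothelial gate at E9.5 was below the somite gate for 17 of 26 members (13.7%) and above it for none of the 26 (12.0%), with Hoxc6 at 3.23 against 45.8 UPM (-3.83), Hoxd1 at 1.21 against 13.7 (-3.50) and the other HoxC genes from Hoxc4 (-3.31) to Hoxc9 (-3.01) the furthest below. At E11.5 it was below for 10 of 28 (13.1%) and above for Hoxd8, at 24.6 against 4.90 UPM (2.33, 13.3% of all genes).

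Among 37 genes known to regulate Hox genes or to act with them, several early axial genes were lower at E11.5. In the somite gate 7 of 32 measured were past 2-fold lower and 2 higher, where 6.24% and 16.7% of all genes were. The sclerotome gate had 5 lower (4.77% of all genes) and 4 higher (18.4%) of 31, and the muscle gate 6 (6.01%) and 3 (16.8%) of 30. The neural tube gate had 4 lower (5.83%) and 2 higher (18.0%) of 34, the neural crest gate 7 (6.34%) and 0 (14.9%) of 30, and the endothelial gate 5 (3.97%) and 4 (9.18%) of 28. Lin28a, an RNA-binding protein of early embryos, went from 41.4 to 0.26 UPM (-7.34) in the somite gate, and was lower in all 6 gates, as was Lin28b (59.9 and 4.86 in the same gate, -3.62). Cdx1, a homeobox gene upstream of Hox genes, went from 12.6 to 0.13 UPM (-6.62) in the somite gate and from 36.9 to 0 in the muscle gate, and was lower in the sclerotome (-4.21) and neural crest gates too. Fgf8, a signal of the tail end, was lower in the somite (-2.20), sclerotome (-2.61), muscle (-3.93) and endothelial gates, and T, of the early mesoderm, in the somite gate (-3.01). Wnt3a went from 4.19 to 0 UPM in the neural crest gate. In the neural tube gate Cdx1 (122 UMIs at E9.5), Wnt3a (113), Cdx2 (97), Cdx4 (96) and Fgf8 (51) had 0 UMIs at E11.5. They are not among its 4 lower genes, because the floor of 3 counts in that small gate is 2.78 UPM.

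Retinoic acid genes moved with tissue. Aldh1a2, which makes retinoic acid, went from 237 to 7.19 UPM in the sclerotome gate (-5.04), from 176 to 5.87 in the muscle gate, from 81.0 to 37.6 in the somite gate and from 7.06 up to 30.6 in the endothelial gate (2.11). It was also lower in both neural gates. The receptor gene Rarg was higher in the somite (4.04 to 15.0 UPM, 1.89), sclerotome (2.99) and neural tube (1.75) gates, Rarb in the somite (1.19) and muscle (1.58) gates and Rara in the muscle gate (1.16). Cyp26a1, which breaks retinoic acid down, was lower in the somite (-1.05) and endothelial gates and higher in the sclerotome gate (2.62). Gdf11, a signal that favours 5′ Hox genes, was higher in the sclerotome (9.52 to 20.6 UPM, 1.11) and endothelial (1.42) gates. The endothelial value of Gdf11 rested on 18 and 13 UMIs (0.27 to 2.53).

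Cofactors of the Pbx and Meis families changed in a few gates. Pbx4 went from 18.0 to 59.2 in the neural tube gate (1.72). Meis2 went down from 281 to 110.0 UPM in the muscle gate (-1.35) and from 173 to 30.3 in the neural crest gate (-2.51). Meis1 was lower in the neural crest gate (-1.32) and higher in the endothelial gate (1.07), and Pknox1 was higher in the muscle gate (1.15). Meis3 was lower in the endothelial gate (-1.32) on 37 and 4 UMIs, with an interval of -3.27 to 0.15 that includes no change. None of the 9 cofactors was past 2-fold in the somite gate. Of 12 Polycomb and Trithorax genes, which keep Hox genes off or on, Cbx2 in the neural tube gate (39.0 to 19.4 UPM, -1.01) was the only one past 2-fold in any of the 6 gates. Evx1 and Evx2, neighbours of HoxA and HoxD, had too few UMIs to measure.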

How the data were processed

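Droplet 3′ libraries were deposited as gene by barcode UMI counts, which the authors made with Cell Ranger 3.0.1 on mm10. The cell filter of the study's methods was applied (at least 200 and fewer than 6500 genes, under 15% mitochondrial UMIs), and gates needed 2 or 3 UMIs summed over their markers. Red blood cells had at least 20% globin UMIs. The members and lists were chosen with earlier results of these data known. All members are accounted for, and named singly are the top 3 per gate and stage, those past 2-fold, groups 1, 2 and 10 to 13, and listed regulators past 2-fold, of which some results are not reported here. Counts were summed per gate (Python 3.11.15, numpy 2.4.6, scipy 1.17.1, pandas 2.3.3, scanpy 1.11.5), with exact Poisson intervals, exact intervals for ratios of 2 counts and Clopper-Pearson intervals for shares. A fold against 0 UMIs was taken against a floor of 3 counts per gate. The ratio intervals were tested on simulated Poisson counts, which follow the rule that the intervals assume. Variation between cells was left out, so this could not show how well the intervals hold for these data. Doublets were not removed in the values given, and Scrublet calls were 6.31% and 3.75%. Alternatives covered thinning, other thresholds, centring, doublet removal and Leiden clusters. Figures used matplotlib 3.10.9.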

Additional observations from a re-analysis of the deposited data

Results flagged for a closer look

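For 7 members the stage ratio passed 2-fold in opposite directions in different tissues, being higher at E11.5 in the neural tube gate and lower in the muscle gate. The log2 ratios in the neural tube and muscle gates were 1.36 and -1.83 for Hoxa3, 1.22 and -1.22 for Hoxa5, 1.14 and -3.13 for Hoxb3, 1.42 and -2.69 for Hoxb5, 1.60 and -2.59 for Hoxb6, 2.29 and -1.06 for Hoxb7, and 1.21 and -2.24 for Hoxb8. With 1 library per stage the difference between tissues was not tested. Both tissues come from the same libraries, in which stage, axial level and library cannot be told apart. The part of changes in the makeup of the gates in these opposite ratios was not tested.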

How the results depend on the processing

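Sums moved beyond their counting interval under several settings, without a change of direction in the somite, sclerotome and neural tube gates. In the thinned setting of this section the gates were applied again to the thinned counts, so depth and gate membership changed together. The E9.5 somite gate then held 2741 cells in place of 2453, and the E9.5 muscle gate 49 in place of 171. The log2 ratio of the Hox sum in the somite gate was 0.74 with doubled gate thresholds, 0.73 with thinned cells, 0.69 as a mean over cells, 0.51 when centred on the median of all genes, 0.79 with Leiden clusters in place of gates and 0.70 without cells holding a lateral plate marker UMI. In the sclerotome gate it was 1.10, 1.13, 1.21, 0.96, 1.39 and 1.24 in this order. In the muscle gate it was -0.016 with doubled thresholds and 0.18 with thinned cells. In the neural tube gate it was 1.27 with thinned cells, 1.27 as a mean over cells, 0.98 when centred and 1.31 in cells with a Pax3 UMI. In the neural crest gate it was -0.20 with doubled thresholds, -0.028 as a mean over cells, -0.20 when centred and -0.015 with Leiden clusters, and in the endothelial gate 0.17, 0.32 with thinned cells and -0.23 with Leiden clusters. Counts of members past 2-fold moved by more than 1.5 times in the neural crest and endothelial gates. They were 4 and 7 with thinned cells and 4 and 3 with at least 100 UMIs, in that order. Fewer genes could be measured under both settings, and gate membership also changed with thinning. The part of each in these counts was not tested. Reversed were Hoxd1 in the sclerotome gate (1.10 with Leiden clusters) and Hoxc6 and group 6 in the endothelial gate (-0.29 and -0.37 with Leiden clusters). Hoxa5 was reversed in the muscle gate (1.35 with thinned cells, where the E9.5 gate held 49 cells). The cause was not tested. Of 148 member, group and cluster ratios past 2-fold, 147 remained so with Scrublet calls removed, as did 110 of 117 with thinned cells and 97 of 114 with Leiden clusters. Without reversing, 93 of 214 such ratios of any size moved outside their counting interval with thinned cells and 95 of 209 with Leiden clusters. So did 70 of 253 when centred, 55 of 249 with doubled thresholds and 2 of 251 with Scrublet calls removed. Leaving out cells with a lateral plate marker and the Pax3 subset were chosen after seeing the data. No muscle cluster formed at E9.5, so Leiden gave no muscle value. No paired analysis was possible because each stage has 1 library.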

Other observations

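Spinal and sensory neurons, marked by Elavl3 and Elavl4 (609 cells at E9.5 against 440 at E11.5), held the highest summed Hox level of any gate at E11.5, 2615 UPM, close to the 2597 of the neural tube gate. Hoxb1, which had at most 2 UMIs in each of the 6 gates at E11.5, was found in them, with 210 UMIs at E9.5 against 60 at E11.5 (24.6 and 11.4 UPM). Hoxd10 stood at 13.1 UPM in these neurons against 2.78 in the neural tube gate, a log2 ratio of 2.24, and Hoxa10 at 101 against 43.5 (1.21).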
